A study of Mus musculus with 12 samples.

Results

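The mouse keratin gene family was followed through hyperplastic mammary glands of 3 genotypes. Its members were the protein-coding genes named Krt with a number, 53 of the 54532 genes in the deposited expression table, and 1 further gene with a keratin name, Krt74, was left out because it is listed as a pseudogene. The members comprised 27 type I genes, 25 type II genes and Krt222, to which no type was given. Levels are in FPKM (fragments scaled to gene length and to library size), so genes of different length can be set side by side. The family was divided by site of expression, as known for mouse, into 4 luminal, 4 basal, 8 epidermal, 7 inner root sheath, 15 hair shaft, 5 mucosal or corneal, 4 stress or companion layer and 6 other keratins.

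Keratins build the intermediate filaments of epithelial cells. A type I protein always pairs with a type II protein, and the pair that a cell makes marks its place in the tissue. In the mammary gland, luminal cells carry Krt8 with Krt18, together with Krt7 and Krt19, while the surrounding basal (myoepithelial) cells carry Krt5 with Krt14. In skin, Krt5 and Krt14 fill the basal layer and are replaced by Krt1 and Krt10 as cells move up and cornify, and hair has its own hard keratins. The genes lie in a pair of clusters in the GRCm38 genome: 27 members on chromosome 11 between 99232761 and 100269871, and 26 on chromosome 15 between 101347444 and 102032027. Krt18, a type I gene, sits in the chromosome 15 cluster, 23.7 kb from its partner Krt8. Stat3 itself is on chromosome 11, 615 kb beyond the end of the keratin cluster.

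The glands came from female FVB/N mice of the MIC strain, in which doxycycline turns on polyoma middle T antigen and Cre recombinase in mammary epithelium. As background, this strain is known to use an MMTV-driven transactivator, so Cre acts in the induced epithelium. An allele that Cre cuts is lost there, while other cells of the gland keep it. The labels do not say whether Stat3 ko or Chi3l1 ko was made by Cre. All mice had doxycycline at 2 mg/ml in their water, and the titles carry 2 weeks. There were 4 MIC Stat3 ko, 4 MIC Chi3l1 ko and 4 MIC WT libraries, written below as Stat3 ko 1 to 4, Chi3l1 ko 1 to 4 and WT 1 to 4. The labels give neither the alleles nor the ages, and nothing on whether the samples of a group were separate animals, so p-values measure the spread between samples, which may be technical.

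Libraries held 16217143 to 22607123 counts. On the log2(FPKM + 1) scale, Stat3 fell by 1.56 ± 0.12 (SE, n = 4 per group, limma adjusted p = 5.6e-05) in Stat3 ko and Chil1, the mouse Chi3l1 gene, fell by 7.18 ± 0.31 (adjusted p = 1.1e-06) in Chi3l1 ko, both against WT. Chil1 also fell in Stat3 ko against WT, by 3.65 ± 0.31 (limma adjusted p = 6.9e-05). Its mean was 11.7 FPKM in Stat3 ko and 151 FPKM in WT. The Stat3 ko libraries differed among themselves. Summed FPKM of 8 general epithelial genes such as Epcam was 307, 479, 790 and 1047 in Stat3 ko 1 to 4, against 951 to 1240 in Chi3l1 ko and 1052 to 1197 in WT. Summed FPKM of 9 adipocyte genes was 8877 in Stat3 ko 1 and 962 to 1335 in the other Stat3 ko libraries, against 268 to 1238 in Chi3l1 ko and 177 to 562 in WT. For 8 lymphocyte genes the sum was 26.1, 462, 180 and 12.1 FPKM in Stat3 ko 1 to 4, against 8.43 to 10.9 in Chi3l1 ko and 7.26 to 15.6 in WT. Skeletal muscle genes varied within every group, between 43.0 and 9575 summed FPKM in Stat3 ko, 32.7 and 7847 in Chi3l1 ko and 11.7 and 2524 in WT. Mitochondrial genes took over 2% of counts in Stat3 ko 1, Stat3 ko 2 and Chi3l1 ko 2. In a bulk sample, fewer cells of a type and less RNA per cell cannot be told apart.

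A pair of WT libraries, WT 1 and WT 3, stood apart in epidermal genes. This was seen in the values and not given by the labels. The pair was picked from these same values, so the counts here describe it and test nothing. Of 14 epidermal and cornified envelope genes, 11 were higher in both WT 1 and WT 3 than in any of the other 10 libraries. So were 6 of the 15 keratins that reached 1 FPKM anywhere, against 170 of 16343 genes overall (1.04%). Krt1 and Krt77 reached 1 FPKM in these 2 libraries alone. Summed FPKM of the 14 genes was 77.1 in WT 1 and 117 in WT 3. It was 13.5 to 17.6 in Stat3 ko, 18.8 to 27.3 in Chi3l1 ko, and 21.8 and 27.5 in WT 2 and WT 4. Results that rest on these 2 libraries are given with and without them.

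Of the 53 keratins, 15 reached 1 FPKM in at least 1 library, and 11 passed the filter of 1 FPKM in at least 4 of 12 libraries and were tested. The other 38 stayed at or below 0.869 FPKM, and 15 of these had 0 counts in every library. All 4 luminal and all 4 basal keratins passed, as did 2 of 8 epidermal keratins (Krt10 and Krt80) and 1 of 6 others (Krt23). None of the inner root sheath, hair shaft, mucosal or corneal, and stress or companion layer keratins passed. Summed keratin FPKM per library was 949, 820, 1779 and 1752 in Stat3 ko 1 to 4, between 1246 and 1677 in Chi3l1 ko, and between 1202 and 2086 in WT. The 4 luminal genes made up 86.1% to 97.1% of that sum in the 12 libraries, and Krt8 with Krt18 alone 67.4% to 92.6%.

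**Figure D1:**
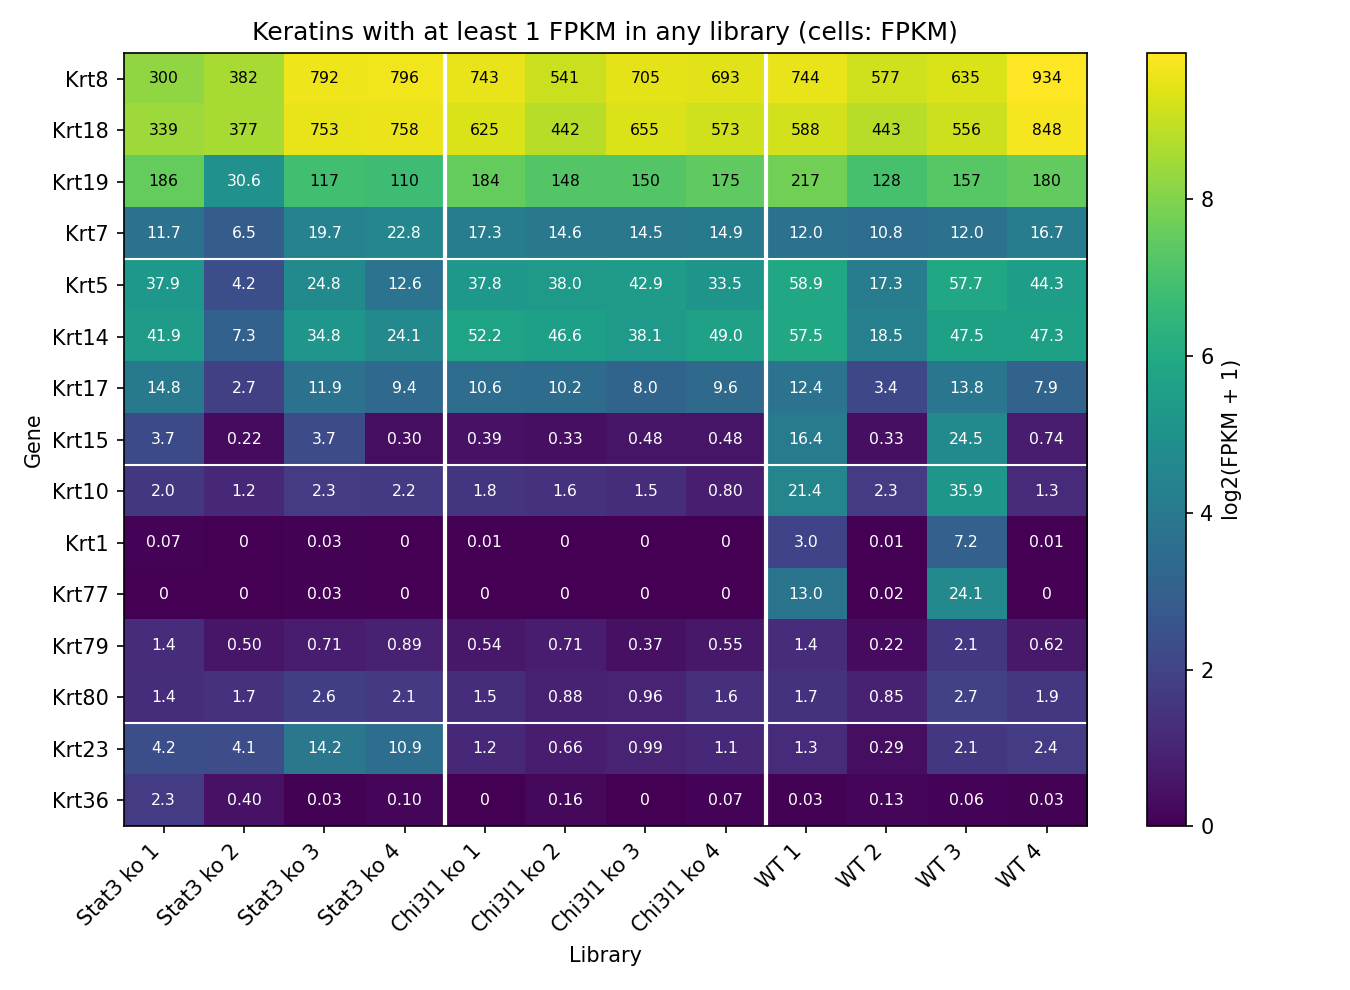
Heat map of the 15 keratins that reached 1 FPKM in any library (rows; white lines part luminal, basal, epidermal and other genes) across the 12 libraries (columns, Stat3 ko, Chi3l1 ko and WT from left to right). Numbers are FPKM and colour is log2(FPKM + 1); Krt8 and Krt18 lead every column, Krt23 is highest in the Stat3 ko columns, and Krt10, Krt1, Krt77 and Krt15 are high in WT 1 and WT 3.

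Stat3 ko was compared with WT to ask which keratins differ once Stat3 is lost from the induced gland. Krt23 was the 1 keratin that rose, to 8.32 ± 5.01 FPKM in Stat3 ko against 1.52 ± 0.936 FPKM in WT (mean ± SD, n = 4 each). No luminal or basal keratin passed the test, although the basal pair Krt5 and Krt14 and luminal Krt19 had lower means in Stat3 ko. Of the 11 tested keratins, 1 was called higher and 0 lower at a Benjamini-Hochberg adjusted p under 0.05 (limma), while 14% of all 13643 tested genes were called (5.61% higher and 8.39% lower), so the share of keratins called was close to the background. Unadjusted p was under 0.05 for 2 of the 11, Krt23 and Krt5, and for 4654 of all tested genes. The median log2 difference was −0.45 over the 11 keratins and −0.02 over all tested genes. All differences of this test are on the log2(FPKM + 1) scale, which understates changes of genes near 0.

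Krt23 encodes an acidic (type I) keratin that is low in most healthy epithelia. In human cells it is known to be induced by inhibition of histone deacetylases, and in injured liver it marks ductular cells. The gene (ENSMUSG00000006777) lies on the minus strand of chromosome 11, from 99477974 to 99493137, in the cluster that ends before Stat3. Its promoter is shown because it is the keratin that rose in Stat3 ko, and the promoters of Krt77 and Krt10 are shown because these genes moved together in WT 1 and WT 3, as given further on. Each holds 250 bases before and 50 after the RefSeq start on GRCm38.p6, 5′ to 3′ on the strand of the gene. The windows are chr11:99493071-99493370 for Krt23, chr15:101869656-101869955 for Krt77 and chr11:99389315-99389614 for Krt10, all on the minus strand. Capitals mark matches to TATAAA or TTCNNNGAA, the letters bound by STAT proteins, on either strand.
Krt23: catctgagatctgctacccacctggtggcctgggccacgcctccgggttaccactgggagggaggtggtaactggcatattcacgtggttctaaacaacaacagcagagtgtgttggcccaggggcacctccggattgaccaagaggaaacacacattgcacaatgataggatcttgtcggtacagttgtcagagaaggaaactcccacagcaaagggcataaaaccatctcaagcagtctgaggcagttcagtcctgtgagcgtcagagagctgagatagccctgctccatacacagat
Krt77: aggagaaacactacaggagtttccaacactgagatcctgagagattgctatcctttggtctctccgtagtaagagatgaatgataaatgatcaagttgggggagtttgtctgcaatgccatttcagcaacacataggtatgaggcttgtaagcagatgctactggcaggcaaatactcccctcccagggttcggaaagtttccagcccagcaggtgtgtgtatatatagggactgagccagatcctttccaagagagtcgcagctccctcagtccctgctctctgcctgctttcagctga
Krt10: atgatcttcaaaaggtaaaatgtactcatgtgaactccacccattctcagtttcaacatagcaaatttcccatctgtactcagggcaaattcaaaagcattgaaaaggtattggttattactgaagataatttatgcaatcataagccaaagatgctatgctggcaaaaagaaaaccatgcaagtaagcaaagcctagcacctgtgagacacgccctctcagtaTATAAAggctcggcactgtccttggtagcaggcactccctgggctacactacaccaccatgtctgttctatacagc
The Krt10 window held TATAAA starting at base −26 before the start. The Krt23 and Krt77 windows held neither motif, nor TGANTCA, the letters of AP-1 sites, which says only that these letters were not in those windows. Promoters of 36 of the 53 keratins were in the RefSeq table, as 37 windows, and 19 of them held TATAAA, 4 TTCNNNGAA and 2 TGANTCA. Over all 32851 promoters of the table the shares were 13.6%, 8.3% and 7.81%.

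Krt23 stood at 4.22, 4.07, 14.2 and 10.9 FPKM in Stat3 ko 1 to 4, from 110, 115, 465 and 321 counts. It stood at 1.18, 0.665, 0.993 and 1.15 FPKM in Chi3l1 ko 1 to 4, and at 1.32, 0.286, 2.05 and 2.40 FPKM in WT 1 to 4. Every Stat3 ko library was above every WT and every Chi3l1 ko library, a separation that 9.67% of tested genes showed in this direction against WT. The rise was 1.81 ± 0.39 on the log2 scale (SE, limma adjusted p = 0.0150), and 2.45 with edgeR on the recovered counts (adjusted p = 0.0214). The call held with each library left out in turn (adjusted p = 0.0109 to 0.0490), and with the mean level of the 8 general epithelial genes as a covariate the difference was 2.78 (adjusted p = 0.00541). It ended when only Stat3 ko and WT were fitted (adjusted p = 0.0643) and without WT 1 and WT 3 (1.99, adjusted p = 0.119), where the number of all genes called was 118 in place of 1911. Without these 2 libraries edgeR gave 2.62 (adjusted p = 0.180), and DESeq2 still called Krt23 (2.63, adjusted p = 0.00941).

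Below the filter, Krt4 had the same order and Krt222 did not quite. Krt4, which pairs with Krt13 in the lining of mouth and oesophagus, had 21, 15, 28 and 35 counts in Stat3 ko 1 to 4 (0.389 to 0.869 FPKM). It had 5, 0, 5 and 0 counts in Chi3l1 ko and 2, 0, 7 and 3 in WT, so that no Stat3 ko library overlapped another group. Among genes that passed the filter, 9.67% were higher without overlap against WT and 6.85% against Chi3l1 ko. No such share was taken for genes below the filter. For Krt4, edgeR gave 3.02 log2 against WT (adjusted p = 0.0369) and 3.43 against Chi3l1 ko (adjusted p = 0.0282). Without WT 1 and WT 3 it gave 4.03 against WT (adjusted p = 0.190), where DESeq2 gave 4.13 (adjusted p = 0.0166). Its partner Krt13 had counts in only 1 Chi3l1 ko library and 1 WT library and none in Stat3 ko. Krt222, a keratin-like gene at the end of the chromosome 11 cluster, had 24, 30, 15 and 26 counts in Stat3 ko, against 6, 18, 7 and 3 in Chi3l1 ko and 4, 15, 6 and 7 in WT. In FPKM, Stat3 ko 3 (0.217) was above every WT library but below Chi3l1 ko 2 (0.247). edgeR gave Krt222 1.68 log2 against WT (adjusted p = 0.0437), and 1.30 without WT 1 and WT 3 (adjusted p = 0.296). With edgeR, 15 keratins were tested against WT and 3 were called higher (Krt23, Krt4, Krt222) and 1 lower (Krt10), with 18% of all 16446 genes called (10% higher and 7.97% lower). DESeq2 tested 28 keratins and called 4 higher and 3 lower, with 21.9% of all genes called (13.5% higher and 8.43% lower). Those called lower were Krt10, Krt77 and Krt1. Without WT 1 and WT 3, DESeq2 called 2 of 17 keratins higher and 0 lower, with 982 of all 17910 genes called higher and 555 lower. edgeR then called 0 of 16 keratins, with 6 of all 17515 genes called higher and 114 lower.

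Krt36, a keratin of hair, nail and tongue, reached 2.30 FPKM in Stat3 ko 1 alone. It stood at 0.398, 0.029 and 0.095 FPKM in Stat3 ko 2 to 4, at 0 to 0.162 FPKM in Chi3l1 ko and at 0.031 to 0.134 FPKM in WT. The levels of Krt36 in Stat3 ko 3 and 4 therefore lay within those of the other groups. Krt20, known from gut epithelium and bladder umbrella cells, had 0 counts in all 4 Chi3l1 ko libraries. It was also near 0 elsewhere, with 7, 19, 0 and 8 counts in Stat3 ko 1 to 4 and 2, 2, 5 and 5 in WT. Its highest level was 0.546 FPKM in Stat3 ko 2.

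Luminal keratins were the most abundant, and none was called in Stat3 ko. Krt8 stood at 300, 382, 792 and 796 FPKM in Stat3 ko 1 to 4, at 743, 541, 705 and 693 in Chi3l1 ko, and at 744, 577, 635 and 934 in WT. Its partner Krt18 stood at 339, 377, 753 and 758 FPKM in Stat3 ko, at 625, 442, 655 and 573 in Chi3l1 ko, and at 588, 443, 556 and 848 in WT. Stat3 ko 1 and Stat3 ko 2 were below every WT and Chi3l1 ko library for this pair, and Stat3 ko 3 and Stat3 ko 4 were within the range of WT. Those low libraries are also the ones with the lowest sums of general epithelial genes, and with mitochondrial counts above 2%. Their part in the result was not tested apart from the fits named here. Krt8 differed from WT by −0.45 ± 0.31 (SE, limma adjusted p = 0.316) and Krt18 by −0.19 ± 0.30 (adjusted p = 0.678). With the epithelial level as a covariate both estimates were positive, 0.49 (adjusted p = 0.251) and 0.65 (adjusted p = 0.245), as they were without the 3 libraries above 2% mitochondrial counts, 0.16 (adjusted p = 0.653) and 0.35 (adjusted p = 0.374).

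Krt19, the smallest keratin, which lacks a tail domain and is found in luminal and progenitor cells, stood at 186, 30.6, 117 and 110 FPKM in Stat3 ko 1 to 4. It stood at 184, 148, 150 and 175 in Chi3l1 ko and at 217, 128, 157 and 180 in WT. Stat3 ko 2 to 4 were below every other library, while Stat3 ko 1 was among the highest. The difference from WT was −0.84 ± 0.43 (limma adjusted p = 0.185), and −0.32 without Stat3 ko 2. Krt7, the type II keratin of ducts, stood at 11.7, 6.53, 19.7 and 22.8 FPKM in Stat3 ko, at 17.3, 14.6, 14.5 and 14.9 in Chi3l1 ko and at 11.96, 10.8, 12.02 and 16.7 in WT. Stat3 ko 3 and Stat3 ko 4 held the highest Krt7 levels of the series and Stat3 ko 2 the lowest, with a difference of 0.11 ± 0.30 (adjusted p = 0.825). Without the 3 libraries above 2% mitochondrial counts, Krt7 was called higher (0.70, adjusted p = 0.0315). Of Stat3 ko, that fit kept only Stat3 ko 3 and Stat3 ko 4, the libraries with the highest Krt7. It called 616 of all 13643 tested genes higher and 658 lower. With all 12 libraries, the 4 luminal keratins had a median of −0.32 against WT.

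Basal keratins had lower means in Stat3 ko for Krt5 and Krt14 but not for Krt17. Krt5 stood at 37.9, 4.16, 24.8 and 12.6 FPKM in Stat3 ko 1 to 4, at 37.8, 38.0, 42.9 and 33.5 in Chi3l1 ko, and at 58.9, 17.3, 57.7 and 44.3 in WT. Krt14 stood at 41.9, 7.27, 34.8 and 24.1 FPKM in Stat3 ko, at 52.2, 46.6, 38.1 and 49.0 in Chi3l1 ko, and at 57.5, 18.5, 47.5 and 47.3 in WT. Stat3 ko 2 was the lowest library for both and WT 2 was the lowest WT library, so the groups overlapped. Krt5 differed by −1.34 ± 0.56 (SE, limma adjusted p = 0.116) and Krt14 by −0.77 ± 0.48 (adjusted p = 0.274). Krt5 passed when Stat3 ko 1 was left out (−1.76, adjusted p = 0.04996), and its adjusted p over all libraries left out in turn ran up to 0.253. Leaving out Stat3 ko 2 gave −0.79 for Krt5 and −0.26 for Krt14. Without WT 1 and WT 3 the values were −0.82 for Krt5 (adjusted p = 0.508) and −0.37 for Krt14 (adjusted p = 0.740).

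Krt17, which wounded and proliferating epithelia induce, stood at 14.8, 2.68, 11.9 and 9.42 FPKM in Stat3 ko, at 10.6, 10.2, 7.98 and 9.57 in Chi3l1 ko, and at 12.4, 3.40, 13.8 and 7.92 in WT. The difference of Krt17 from WT was 0.00 ± 0.46 (adjusted p = 0.997), and Stat3 ko 2 and WT 2 were again the lowest of their groups. The basal cell factor Trp63 stood at 3.47, 0.561, 1.56 and 1.73 FPKM in Stat3 ko 1 to 4, at 2.00 to 2.32 in Chi3l1 ko and at 1.65 to 2.81 in WT. The contractile myoepithelial gene Acta2, which other muscle-like cells share, stood at 186, 22.1, 73.4 and 31.7 FPKM in Stat3 ko, at 11.7 to 29.3 in Chi3l1 ko and at 11.6 to 21.6 in WT. Within Stat3 ko, both were lowest in Stat3 ko 2, as Krt5, Krt14 and Krt17 were, but Acta2 in that library was not below the WT range. Other genes of the myoepithelial list were divided. Cnn1 and Oxtr were also lowest in Stat3 ko 2. Others were not, such as Myl9, which was lowest in Stat3 ko 4, and Lmod1 and Tagln, which were lowest in Stat3 ko 3. Tagln was highest in Stat3 ko 2. Of 9 myoepithelial genes, 7 were tested against WT, 0 were called and the median was 1.02.

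**Figure D2:**
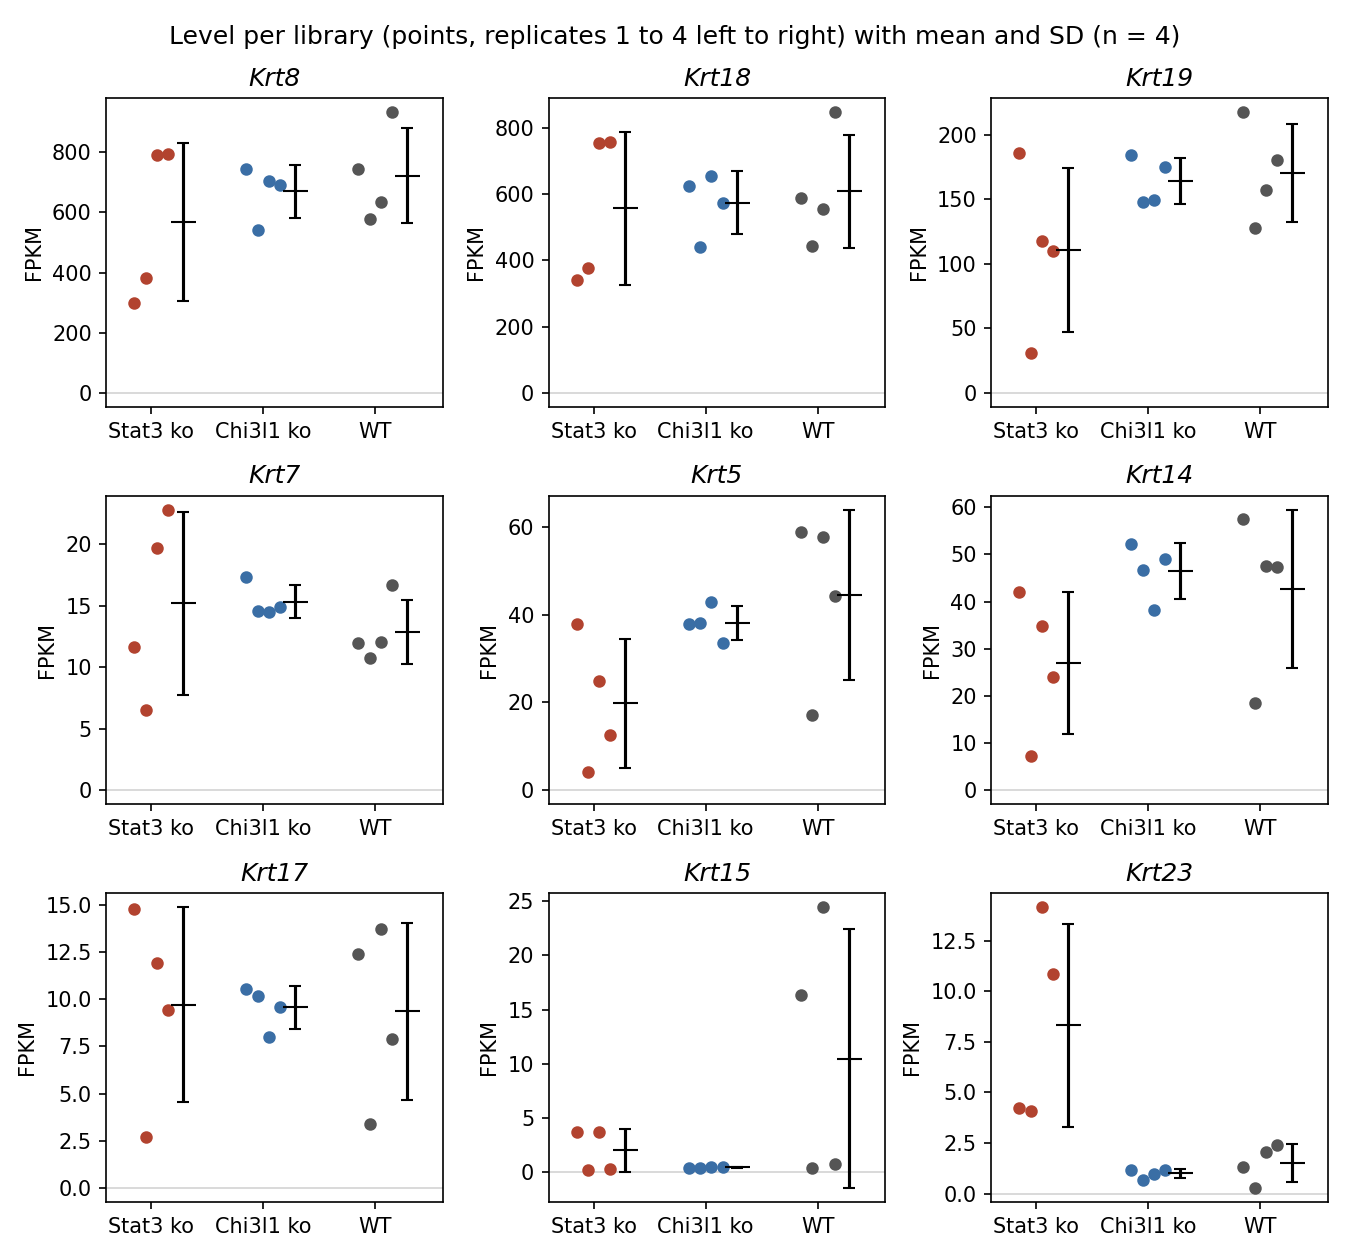
FPKM of the luminal keratins Krt8, Krt18, Krt19 and Krt7, the basal keratins Krt5, Krt14, Krt17 and Krt15, and Krt23, with 1 panel per gene and separate linear axes. Points are libraries (replicates 1 to 4 from left to right within Stat3 ko, Chi3l1 ko and WT) and the bars beside them are mean ± SD (n = 4); the 4 Stat3 ko points of Krt23 lie between 4.07 and 14.2 FPKM, above all others, and the Stat3 ko points of Krt8 form a low and a high pair.

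Chi3l1 ko was compared with WT to ask whether loss of Chi3l1 changes the keratins of the gland. The luminal keratins and the basal keratins Krt5, Krt14 and Krt17 stood close to WT. The keratins with the largest differences were Krt15, listed here as basal, and the epidermal Krt10, both low in Chi3l1 ko beside WT 1 and WT 3. No keratin of the 11 tested was called by limma, with 0.00733% of all tested genes called, which is Chil1 alone. Unadjusted p was under 0.05 for 2 of the 11, Krt15 (0.0495) and Krt10 (0.0266), and for 222 of all 13643 genes. edgeR called 0 keratins of 15, with 0.00608% of all genes called, all lower. DESeq2 called 2 of 28 lower, Krt10 and Krt77, with 0.0349% of all genes called (0.00499% higher and 0.0299% lower). The ranges of Chi3l1 ko and WT overlapped for all 11, where 1.12% of tested genes were higher and 1.36% lower without overlap. The 11 keratins had a median of −0.09, and 0.00 was the median of all tested genes. The 9 keratins other than Krt15 and Krt10 differed from WT by −0.31 to 0.25.

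Krt10, the type I keratin of cornifying epidermis, stood at 1.77, 1.65, 1.47 and 0.795 FPKM in Chi3l1 ko 1 to 4 and at 2.04, 1.20, 2.25 and 2.18 in Stat3 ko 1 to 4. In WT 1 to 4 it stood at 21.4, 2.33, 35.9 and 1.29 FPKM. WT 1 and WT 3 were high, and WT 2 and WT 4 lay near the knockout libraries. Its difference from WT was −1.90 ± 0.74 in Chi3l1 ko (SE, limma adjusted p = 0.9998) and −1.62 ± 0.74 in Stat3 ko (adjusted p = 0.148), comparisons that share the WT libraries. With edgeR the difference was −3.41 in Chi3l1 ko (adjusted p = 0.9999) and −2.99 in Stat3 ko (adjusted p = 0.0369), and DESeq2 gave −3.42 in Chi3l1 ko (adjusted p = 0.0124). Without WT 1 and WT 3 the limma values were −0.21 in Chi3l1 ko (adjusted p = 0.9999) and 0.07 in Stat3 ko (adjusted p = 0.895).

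Krt77 and Krt1 are type II epidermal keratins, 7.94 kb apart on chromosome 15. Krt77, known from sweat gland ducts and epidermis, had 0 counts in every Chi3l1 ko library, 0, 0, 2 and 0 counts in Stat3 ko 1 to 4, and 679, 1, 1343 and 0 counts in WT 1 to 4. That is 12.96 FPKM in WT 1 and 24.1 in WT 3, with at most 0.033 FPKM anywhere else. Pooled, 0 of 79018266 counts in Chi3l1 ko allow up to 3 counts, or 0.0380 CPM (counts scaled to library size), against 28.05 CPM in WT, at least 739-fold lower in Chi3l1 ko. Of the 2023 WT counts, 2022 came from WT 1 and WT 3, and WT 2 and WT 4 held 1 in 38921955 counts, under the floor of 3, so no fold can be given against them. Krt1, the partner of Krt10, had 1, 0, 0 and 0 counts in Chi3l1 ko, 5, 0, 3 and 0 in Stat3 ko, and 237, 1, 600 and 1 in WT. The groups overlapped for both genes, since WT 2 and WT 4 were as low as the knockout libraries.

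In the authors' deposited table of Chi3l1 ko against WT, Krt77 stands second by p of the 824 genes listed, after Chil1, at a log2 fold change of −25.2 (adjusted p = 8.6e-10). Such a value against a group at 0 counts depends on the fit and is no bound. The authors' deposited table also calls Krt1 (−9.60, adjusted p = 0.0383) and Krt15 (−4.64, adjusted p = 0.0499), so that 3 of the 6 keratins it lists are called, where 3.76% of all its listed genes are. With WT 1 and WT 3 left out, DESeq2 gave −1.44 for Krt77 and −1.75 for Krt1 in Chi3l1 ko (adjusted p = 1 for both), from 1 WT count of Krt77 and 2 WT libraries with 1 count each of Krt1. In the authors' deposited table of Stat3 ko against WT, 9 keratins are listed and 7 are called. The called genes of that authors' deposited table are Krt4 (3.07), Krt36 (3.41), Krt23 (2.45) and Krt222 (1.68) higher, and Krt77 (−10.14), Krt1 (−6.67) and Krt10 (−3.00) lower on the log2 scale, with 57.6% of its 6155 listed genes called.

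Krt15, a keratin of basal epidermis and of the hair follicle bulge, was grouped with the basal genes but followed the epidermal ones in part. It stood at 0.387, 0.333, 0.482 and 0.476 FPKM in Chi3l1 ko, at 3.70, 0.219, 3.72 and 0.300 in Stat3 ko, and at 16.4, 0.329, 24.5 and 0.739 in WT. WT 1 and WT 3 were highest, and Stat3 ko 1 and Stat3 ko 3 were between them and the rest. Krt15 passed the filter through exactly these 4 libraries, 2 of Stat3 ko and 2 of WT. It differed from WT by −1.996 ± 0.91 in Chi3l1 ko (limma adjusted p = 0.9998) and by −1.22 ± 0.91 in Stat3 ko (adjusted p = 0.362). Without WT 1 and WT 3 the values were −0.10 in Chi3l1 ko (adjusted p = 0.9999) and 0.68 in Stat3 ko (adjusted p = 0.504).

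Other genes of cornified epidermis were high in the same libraries. Lor, which encodes the main protein of the cornified envelope, stood at 12.1 FPKM in WT 1 and 22.9 in WT 3, and at 0.054 to 0.452 elsewhere. Krtdap, a keratinocyte differentiation gene, stood at 11.95 and 21.9 FPKM there and at 0 to 1.59 elsewhere, and the late envelope gene Lce1m at 6.07 and 11.1 against 0 to 0.047. Cdsn, Tgm3 and Asprv1 were the 3 of 14 that did not exceed all other libraries in both. Among keratins below 1 FPKM, Krt75 of the hair companion layer had counts in WT 1 (16) and WT 3 (31) alone. In FPKM, Krt78, Krt24 and Krt6a were also above all other libraries there, from few counts. Krt24 had 4 and 9 counts in WT 1 and WT 3, and Krt6a had 8 and 12, beside 8 in Stat3 ko 4. Krt79, which marks the hair follicle opening and sebaceous ducts, stood at 1.41 and 2.05 FPKM in WT 1 and WT 3, close to 1.36 in Stat3 ko 1 and above 0.216 to 0.891 in the rest. Krt5 was above all other libraries in both as well, whereas its partner Krt14 was not.

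**Figure D3:**
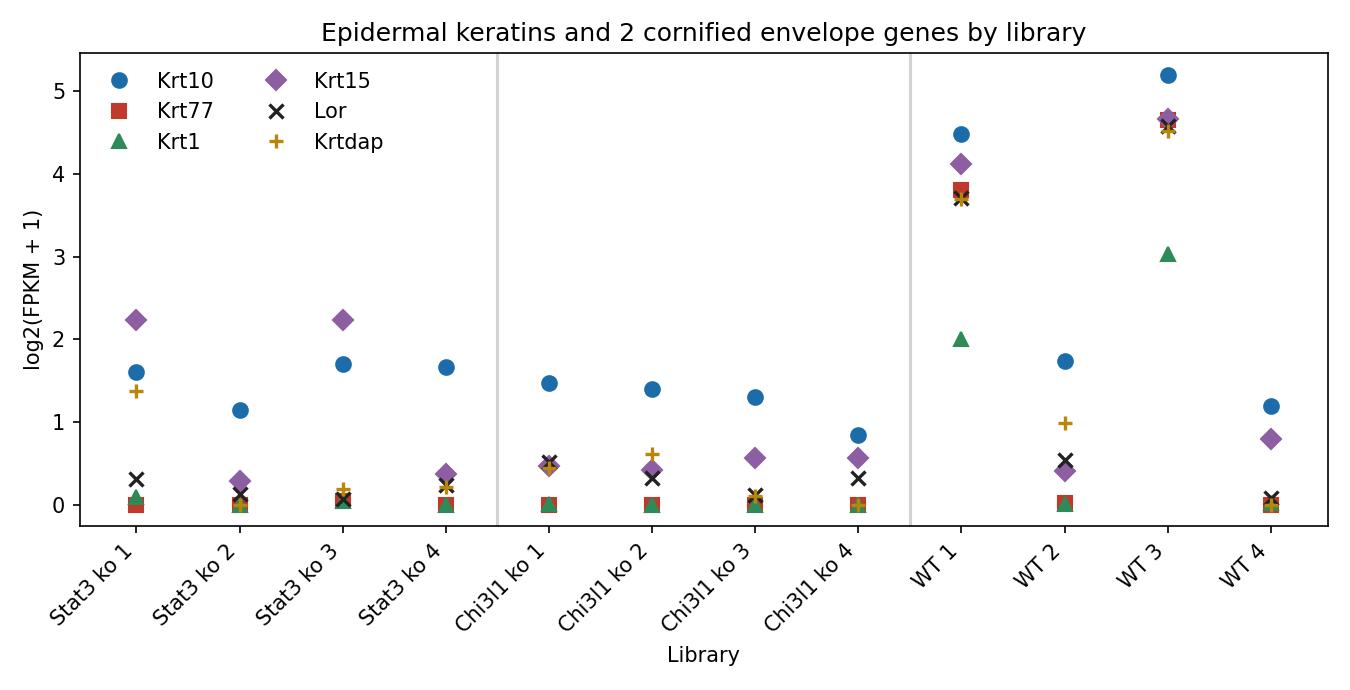
Levels of the epidermal keratins Krt10, Krt77 and Krt1, of Krt15, and of the cornified envelope genes Lor and Krtdap in each library, as log2(FPKM + 1) on the vertical axis, with Stat3 ko, Chi3l1 ko and WT from left to right. WT 1 and WT 3 are high for all 6 genes, with Krt10 at 21.4 and 35.9 FPKM, while WT 2 and WT 4 lie near the knockout libraries.

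Keratins of hair were nearly silent, also in WT 1 and WT 3. Of 15 hair shaft keratins, 9 had 0 counts in all 12 libraries, and Krt36 alone reached 1 FPKM. Of 7 inner root sheath keratins, 3 were at 0 and the highest level was 0.383 FPKM. All 57 keratin-associated protein genes, a list taken after the values were seen, had 0 counts in every library. Summed FPKM of 8 hair follicle genes was 7.42 to 14.8 in Stat3 ko, 9.57 to 11.96 in Chi3l1 ko and 8.19 to 13.2 in WT. Most of each sum came from the same 1 gene, and only 1 or 2 of the 8 reached 1 FPKM in a library. The sum therefore says little about the others. Among the stress keratins, Krt6b was at 0 throughout, and Krt6a and Krt16, which wounding induces in skin, reached at most 0.261 and 0.320 FPKM. The pairs Krt6a and Krt6b, and Krt33a and Krt33b, are close copies, so that the counting may have lost or split their reads. Krt2 and Krt12, of upper epidermis and cornea, were at 0 in all 12 libraries.

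Stat3 ko was also set against Chi3l1 ko, a comparison that does not use the WT libraries for its difference. Krt23 rose by 2.06 ± 0.39 (SE, n = 4 per group, limma adjusted p = 0.00856) in Stat3 ko. It was the 1 of 11 tested keratins called, with 13.2% of all tested genes called (5.19% higher), and the 1 keratin without overlap, where 6.85% of genes had none in this direction. edgeR called 3 keratins higher and 0 lower, with 7.8% and 7.3% of all genes called in these directions, and DESeq2 called 6 higher and 0 lower, with 11.7% and 7.72%. Krt5 differed by −1.26 ± 0.56 (adjusted p = 0.147), Krt14 by −0.99 ± 0.48 (adjusted p = 0.180) and Krt19 by −0.81 ± 0.43 (adjusted p = 0.218). Krt80, a filament keratin of many epithelia, stood at 1.94 FPKM on average in Stat3 ko, 1.22 in Chi3l1 ko and 1.81 in WT, and was called in none of the comparisons.

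**Figure D4:**
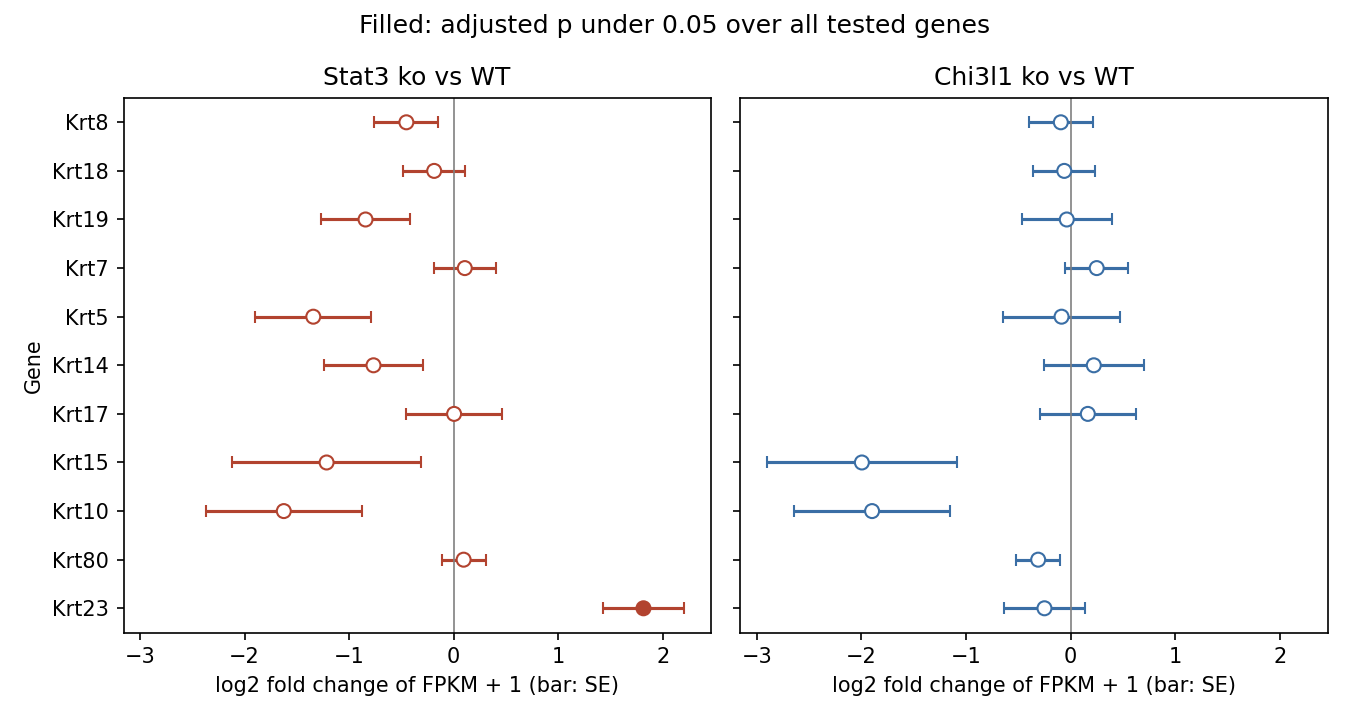
Log2 fold change of FPKM + 1 with its standard error for the 11 tested keratins in Stat3 ko against WT (left) and Chi3l1 ko against WT (right). A filled point has an adjusted p under 0.05 over all 13643 tested genes, which holds for Krt23 in Stat3 ko at 1.81; Krt15 and Krt10 are the lowest points on the right, at −1.996 and −1.90.

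Ratios within a library are free of its scaling, and they are given as a description with no test. The ratio of Krt8 to Krt18 was 0.884, 1.02, 1.05 and 1.05 in Stat3 ko 1 to 4, against 1.08 to 1.23 in Chi3l1 ko and 1.10 to 1.30 in WT. Every Stat3 ko library was below every other library in it. The ratio of Krt5 to Krt14 was 0.903, 0.572, 0.713 and 0.522 in Stat3 ko, against 0.683 to 1.125 in Chi3l1 ko and 0.932 to 1.21 in WT. Stat3 ko thus lay below WT in both filament pairs, while Chi3l1 ko overlapped WT in both. For Krt5 over Krt14 the gap was narrow, from 0.903 in Stat3 ko 1 to 0.932 in WT 2. No share was taken for ratios of other gene pairs. Of single tested genes, 11.6% were lower and 9.67% higher in Stat3 ko than in WT without overlap. Krt19 relative to Krt8 was 0.619 in Stat3 ko 1 and 0.080 to 0.148 in the other 3 Stat3 ko libraries, against 0.212 to 0.273 in Chi3l1 ko and 0.193 to 0.292 in WT. Stat3 ko therefore held both the highest and the lowest values of this ratio.

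The luminal pair relative to the basal pair, Krt8 plus Krt18 over Krt5 plus Krt14, was 8.01, 66.4, 25.9 and 42.4 in Stat3 ko 1 to 4. It was 11.6 to 16.8 in Chi3l1 ko, and 11.4, 28.5, 11.3 and 19.4 in WT 1 to 4. The spread within Stat3 ko was wider than in either other group. Type I over type II keratins summed to a ratio of 1.68 in Stat3 ko 1 and to 0.983 to 1.13 in all 11 other libraries. In that library Krt19 was high beside low Krt8, and Krt19 is a type I keratin.

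**Figure D5:**
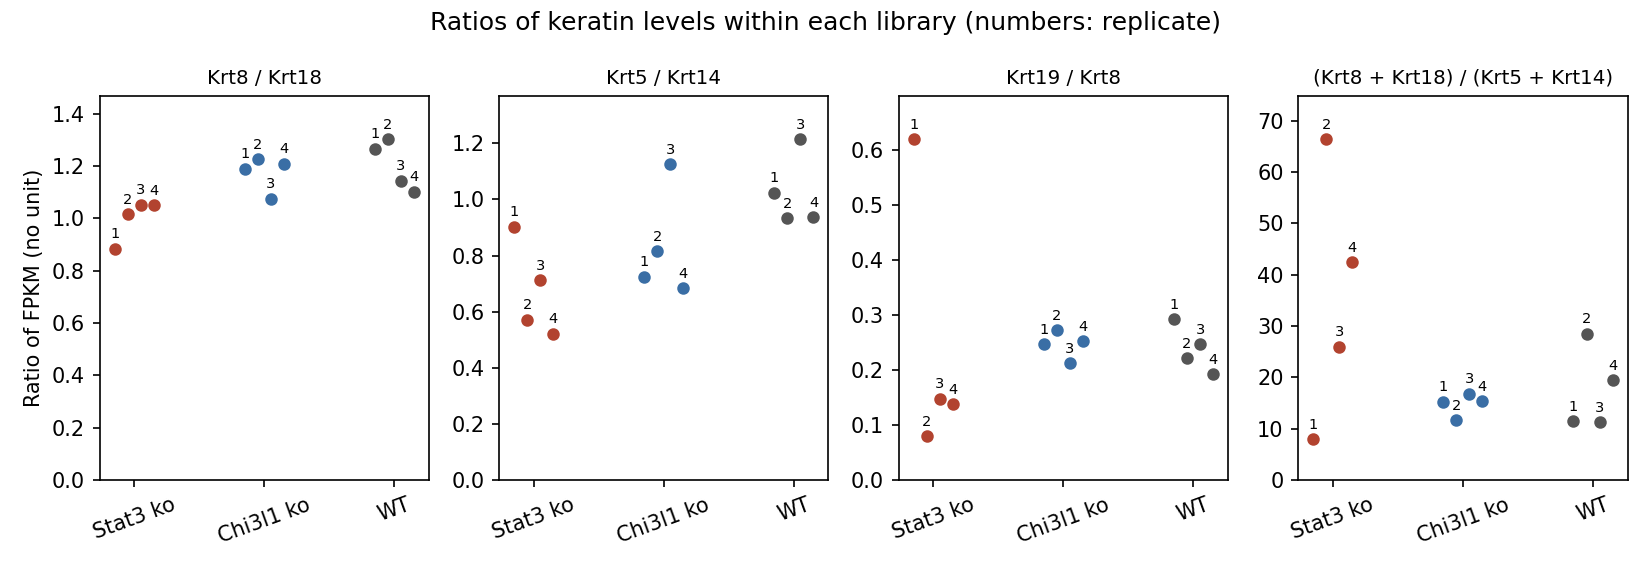
Ratios of FPKM within each library, on linear axes from 0, for Krt8 over Krt18, Krt5 over Krt14, Krt19 over Krt8, and the luminal pair over the basal pair. Points are libraries numbered by replicate, with Stat3 ko, Chi3l1 ko and WT from left to right; all 4 Stat3 ko points of Krt8 over Krt18 lie at or below 1.05, and Stat3 ko 1 stands alone at 0.619 for Krt19 over Krt8.

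Genes that anchor keratin filaments were read beside the keratins. Filaments attach to desmosomes at cell contacts and to hemidesmosomes at the basement membrane. Of 7 hemidesmosome genes, all tested, 4 fell in Stat3 ko against WT and 0 rose, where 8.39% of all tested genes fell and 5.61% rose. Their median was −0.90, beside −0.02 for all tested genes. The integrin chain gene Itgb4 fell by 1.19 ± 0.20 (SE, limma adjusted p = 0.00488) and its partner Itga6 by 0.90 ± 0.16 (adjusted p = 0.00717). Of 16 desmosome and plakin genes, 15 were tested, and 4 fell and 0 rose, beside the same shares of 8.39% and 5.61%, with a median of −0.41. Fam83h, which is known to organise keratin filaments, fell by 0.92 ± 0.21 (adjusted p = 0.0180), and Krtcap3 and the plakophilin gene Pkp3 fell by 0.90 (adjusted p = 0.0315) and 0.85 (adjusted p = 0.0373). Of 8 general epithelial genes, 3 fell, among them Esrp2 (−1.05 ± 0.26, adjusted p = 0.0250), and 0 rose, again beside 8.39% and 5.61%, with a median of −0.99. Without WT 1 and WT 3, where 0.777% of all tested genes were called lower, 0 genes of each of these 3 lists were called, and the medians were −0.91, −0.45 and −1.001 in the order given here. Itgb4 then differed by −1.11 (adjusted p = 0.102) and Itga6 by −0.91 (adjusted p = 0.110). What the epithelial share of the Stat3 ko libraries contributed to these falls was not tested. In Chi3l1 ko against WT, 0 genes of each of these 3 lists were called, where 0.00733% of all tested genes were.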

How the data were processed

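Total RNA of 12 hyperplastic mammary glands was sequenced after library preparation with a NEBNext Ultra II kit, per the labels' protocols. Trimmomatic, STAR and HTSeq, edgeR with limma, and the mm10 (GRCm38) build are listed in the submitters' processing notes, with no roles. The authors deposited FPKM for 54532 genes with gene lengths and, in 2 comparison tables of genes with an unadjusted p under 0.05, raw counts per gene. Those tables also give the authors' log2 fold changes, and the authors' p-values, unadjusted and adjusted. No deposited column lacked a sample.

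Groups came from the genotype labels. FPKM times length gave whole counts for 100% of values, within 0.01, after solving for 1 scaling total in each library, and 0 of 54472 deposited counts differed from them. limma 3.58.1 (R 4.3.3) with an intensity trend was fitted to log2(FPKM + 1) of all 3 groups, two-sided, over 13643 genes that reached 1 FPKM in 4 or more libraries. p-values were adjusted by Benjamini-Hochberg over all of these, errors are limma's standard errors, and levels are mean ± SD. The scripts were tested on simulated data. Alternatives were adding 0.1 in place of 1 FPKM, testing without the filter or above a mean of 5 FPKM, scaling by median of ratios, fitting only the compared groups, the recovered counts in edgeR 4.0.16 or in DESeq2 1.42.0, the epithelial level as a covariate, and each library left out. Leaving out WT 1 and WT 3, or the libraries with over 2% mitochondrial counts, was added after the data were seen.

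The members, the gene lists and their classes were chosen with earlier results of these data known. Krt88 was placed among the other keratins after the files were seen. Named were all keratins that passed the filter or reached 1 FPKM anywhere, and up to 3 genes with the lowest adjusted p of each other list, of which 1 is not reported here. Krt4, Krt222, Krt13, Krt20, Krt24, Krt75, Krt78, Krt6a, Krt6b, Krt16, Krt2 and Krt12 were named after their values were seen. So were Trp63, Cnn1, Oxtr, Myl9, Lmod1, Tagln and the cornified envelope genes. Coordinates of all 53 keratins were the same in GENCODE M21. Tables were made with Python 3.11.15, pandas 2.3.3 and numpy 2.4.6, and figures with matplotlib 3.10.9. Depth is given by the library totals, and floors cover counting error only.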

Additional observations from a re-analysis of the deposited data

Results flagged for a closer look

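In 57 sets of 4 libraries of 1 group (keratin levels and ratios), 5 held a library far from the other 3 by Dixon's test, where chance alone marks about 1 in 20. Krt7 stood at 17.3 FPKM in Chi3l1 ko 1, against 14.5 to 14.9 in Chi3l1 ko 2 to 4. Krt1 stood at 0.00911 FPKM in Chi3l1 ko 1, from 1 count, with 0 in the others, and Krt77 at 0.0325 FPKM in Stat3 ko 3, from 2 counts, with 0 in the others. A set with all but 1 library at 0 is always marked, however low that library is. The rate of 1 in 20 therefore does not hold for such sets. The ratio of type I to type II keratin FPKM was 1.68 in Stat3 ko 1, against 1.07 to 1.115 in Stat3 ko 2 to 4. In Chi3l1 ko 3 this ratio was 1.119, against 1.09 in each of the other 3 Chi3l1 ko libraries.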

How the results depend on the processing

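Among all genes, 1911 were called for Stat3 ko against WT. The count was 1149 with no filter, 506 with the compared groups only, 2955 with edgeR, 4393 with DESeq2, 213 with the epithelial covariate, 118 without WT 1 and WT 3 (120 with edgeR), and 571 to 3252 with 1 library left out, lowest without WT 1 and highest without Stat3 ko 4. The share of higher calls was 40.1%, and 55.6% with edgeR and 61.5% with DESeq2. Keratins called higher numbered 1, and 3 with no filter or edgeR, 4 with DESeq2, 0 with the compared groups only or at a mean of 5 FPKM (where Krt23 was not tested), 2 without libraries over 2% mitochondrial, and 0 without WT 1 and WT 3 (0 with edgeR, 2 with DESeq2). Without libraries over 2% mitochondrial, 616 of all 13643 tested genes were called higher. Keratins called lower numbered 0, and 1 with edgeR, 3 with DESeq2, and 0 to 1 with 1 library left out. For Chi3l1 ko against WT the total of 1 became 7 with DESeq2 and 2 without WT 1 and WT 3 (2 with DESeq2), and 2 keratins were called lower with DESeq2. For Stat3 ko against Chi3l1 ko the total of 1799 became 1119 with no filter, 505 with the compared groups only, 4014 with DESeq2, 282 with the covariate, and 611 to 2890 with 1 library left out. Its share of higher calls was 39.4%, and 51.7% with edgeR and 60.3% with DESeq2. Its 1 keratin called higher became 3 with no filter or edgeR, 6 with DESeq2, and 0 at a mean of 5 FPKM. The cause of these shifts was not tested. Of the fold changes of single keratins under the alternatives, 556 kept their direction and call, 5 gained a call and 3 lost one, all in the same direction, and 54 changed sign without a call before or after, among them Krt8, Krt18 and Krt17 in Stat3 ko. No paired analysis was possible because the labels give the groups no shared replicate numbers. The 4 libraries of a group, the spread among Stat3 ko libraries and counts near 0 limit what can be called for keratins below 1 FPKM.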

Other observations

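Of 15 listed intermediate filament genes outside the keratins, 8 were tested in Stat3 ko against WT, of which 1 rose and 1 fell, where 5.61% of all tested genes rose and 8.39% fell. Their median was −0.16. Vim, the filament protein of mesenchymal and blood cells, stood at 149 ± 73.2 FPKM in Stat3 ko and 55.4 ± 11.7 in WT (SD, n = 4 each) and rose by 1.34 ± 0.31 (SE, limma adjusted p = 0.0202). Nes, which encodes nestin, stood at 8.25 ± 3.11 FPKM in Stat3 ko and 16.4 ± 2.28 in WT and fell by 0.97 ± 0.22 (adjusted p = 0.0186). Without WT 1 and WT 3 neither was called, with 1.52 for Vim (adjusted p = 0.123) and −0.85 for Nes (adjusted p = 0.193). Lymphocyte and adipocyte genes were also higher in Stat3 ko, with 2 of 6 and 4 of 9 tested genes called higher beside 5.61% of all tested genes. Their medians were 1.75 and 2.65. Without WT 1 and WT 3, 0 of each were called, where only 0.088% of all tested genes were called higher. The medians were then 1.53 and 2.04. The part of those cells in the Vim level was not tested.

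Of 9 tested genes of the luminal lineage, 2 rose and 2 fell in Stat3 ko against WT, beside 5.61% and 8.39% of all tested genes. The median of the 9 was 0.57, beside −0.02 for all tested genes, so the list as a whole was not lower. Elf5, a transcription factor of alveolar cells, stood at 27.9 ± 10.7 FPKM in Stat3 ko and 92.8 ± 8.26 in WT and fell by 1.77 ± 0.23 (adjusted p = 0.00119). Gata3, a factor of luminal cells, fell by 0.72 ± 0.20 (adjusted p = 0.0390). Ly6d, a surface protein of keratinocytes and some luminal and B cells, stood at 52.6 ± 33.4 FPKM in Stat3 ko and 6.49 ± 2.57 in WT and rose by 2.59 ± 0.48 (adjusted p = 0.00810). Among 14 epidermal and cornified envelope genes 3 were tested, and Dmkn fell by 2.12 ± 0.34 (adjusted p = 0.00461), at 2.40 ± 0.870 FPKM in Stat3 ko and 15.2 ± 8.59 in WT, with 20.04, 6.73, 24.8 and 9.39 in WT 1 to 4 and at most 3.46 in Stat3 ko. Without WT 1 and WT 3, Dmkn (−1.43, adjusted p = 0.0330) and Elf5 (−1.69, adjusted p = 0.0442) were still called, while Gata3 (−0.69, adjusted p = 0.235) and Ly6d (2.96, adjusted p = 0.0653) were not. In Chi3l1 ko against WT, 0 genes of each of these lists were called, where 0.00733% of all tested genes were.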
